A study of Sus scrofa with 8 samples.

Results

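MAPK feedback and ETV genes are the transcripts that growth factor receptors switch on through the RAS to ERK cascade, and the products of several of them switch that cascade off again. The set described here holds 10 genes, chosen by name with earlier results of these data known. They are the phosphatases DUSP4 and DUSP6, the inhibitors SPRY1, SPRY2, SPRY4 and SPRED1, the transcription factors ETV4 and ETV5, and the ERK-induced genes PHLDA1 and FOSL1. Their counts were taken from a table of 30282 pig genes. All 10 were found there and all 10 passed the expression filter that left 14475 genes for testing.

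The RNA came from porcine pancreatic ductal organoids (PPDO), which are epithelial structures grown in a basement membrane matrix from picked ducts of the pig pancreas. There were 8 libraries, from 4 PPDO lines that were each cultured for a week in complete medium (titled Control) and in differentiation medium (titled Treated). The line Em was embryonic, EPN1 and EPN2 were early postnatal and LPN was late postnatal, so that only the early postnatal stage had more than 1 line. The comparison addressed how PPDO respond when the factors that keep them proliferating are withdrawn.

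Both media held basal medium with N2, B27-vitamin A, the TGF-beta receptor inhibitor A83-01, the ROCK inhibitor Y-27632, nicotinamide and N-acetyl-L-cysteine. Complete medium also held EGF, FGF10, WNT3a, R-spondin1, noggin, gastrin and prostaglandin E2, with a conditioned medium supplement standing in for WNT3a, R-spondin1 and noggin during maintenance. EGF and FGF10 are ligands of receptors that signal through RAS and ERK, but they were withdrawn together with the other factors, and their parts in any difference cannot be told apart. A treatment field of the sample records names an endocrine induction medium for all 8 samples, so the media are assigned here from the sample titles, the table's column names and the study's methods.

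In the textbook account of the pathway, EGF binds EGFR and FGF10 binds the epithelial form of FGFR2. Both receptors load RAS with GTP through the adaptors GRB2, SHC1, FRS2 and GAB1, and RAS then activates the kinases RAF, MEK and ERK in turn. Active ERK drives transcription of its own inhibitors, of the PEA3 type ETS factors and of AP-1 subunits. FGF10 signalling is known for maintaining progenitor cells in the developing pancreas, and ETV4 and ETV5 are widely used as readouts of FGF signalling in branching epithelia.

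Library totals were 40553593 to 47910657 estimated counts, and levels are given as CPM, counts scaled by library total and TMM factor. At these depths 3 counts, the limit that a count of 0 allows, equal 0.0626 to 0.0740 CPM, a limit that covers counting error only. Of 10 ductal markers, 9 were in the table, and their summed level was 7095 to 10069 CPM in complete medium and 3994 to 15005 CPM without the factors. The summed markers of other pancreatic cell types were 0.248 to 1.97 CPM (acinar, 5 of 8 in the table), 0.835 to 23.7 CPM (endocrine, 7 of 7) and 0.689 to 9.26 CPM (stromal, 7 of 7) over all libraries. Endothelial markers summed to 36.3 to 86.6 CPM (5 of 5) and immune markers to 6.61 to 58.3 CPM (5 of 5), and the range of the sums overlapped between the media for all 6 lists. FLT1 (14.5 to 64.0 CPM), KDR (3.36 to 33.9) and PECAM1 (7.96 to 17.6) carried the endothelial sum, and CD68 (3.24 to 49.8) and LYZ (0 to 9.02) the immune sum, while CDH5 and CD3E stayed under the level of 3 counts and PTPRC was at most 2.17 CPM. Single markers differed between the media: the stromal gene PDGFRB was at 2.73 ± 1.85 CPM in complete and 0.383 ± 0.350 CPM in differentiation libraries (log2 fold change -2.82, adjusted p-value 0.121 in edgeR, 0.0160 in the blocked fit and 0.0215 in DESeq2). The epithelial cadherin CDH1 was at 1304 ± 416 and 2779 ± 838 CPM (1.09, with 0.0646, 0.0172 and 0.00437). Of the 9 ductal markers tested, 5 were higher and 4 lower in edgeR, with a median log2 fold change of 0.02. In the blocked fit 3 were higher and 6 lower, with a median of -0.395. PDGFRB and CDH1 were picked after their values were seen, as the markers called in another fit, and the part of these differences in those of the members was not tested. In bulk RNA, fewer cells of a type and less RNA per cell cannot be told apart.

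Every member was lower in differentiation medium, in every line. The fitted log2 fold changes ran from -4.23 for ETV5 to -0.78 for DUSP4, with a median of -1.97, beside a median of 0.01 over all genes tested. In the edgeR quasi-likelihood test with the medium as its term, 7 of the 10 members were past an adjusted p-value of 0.05, all lower, whereas 4.10% of all genes tested were called lower. The 7 were DUSP6, SPRY1, SPRY2, SPRED1, ETV4, ETV5 and PHLDA1. With the line added as a block, which uses the fact that each line was in both media, all 10 were called lower, beside 10.4% of all genes. DESeq2 called all 10 lower with no term for the line, beside 9.97% of all genes, and all 10 with it, beside 18.0%. The levels of all 10 did not overlap between the media, a pattern that 9.96% of all genes showed in this direction. All 10 were lower in all 4 lines, as were 24.2% of all genes.

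**Figure D1:**
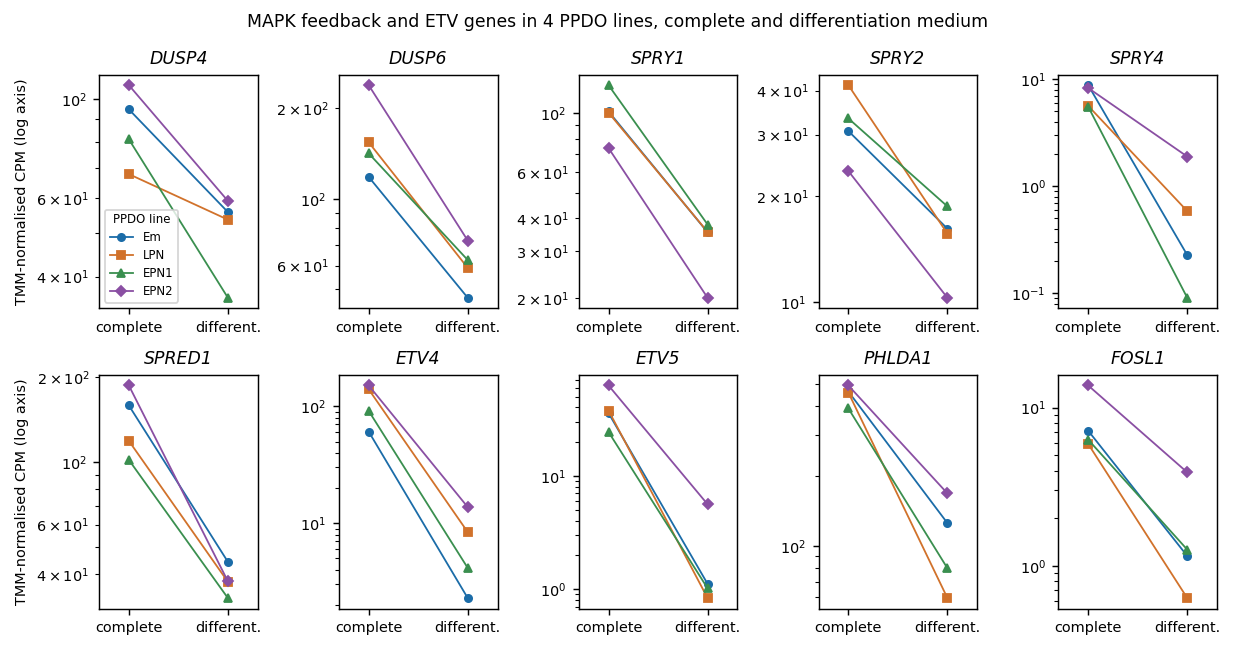
TMM-normalised CPM on log axes of the 10 MAPK feedback and ETV genes in complete and differentiation medium, with 1 marker per library and a line joining the media within each PPDO line. All 40 joining lines run downwards, from a mean of 40.1 to 2.14 CPM for ETV5 at the steep end to a mean of 87.8 to 51.1 CPM for DUSP4 at the shallow end.

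ETV4 and ETV5, which encode transcription factors of the PEA3 group of the ETS family, had the lowest log2 fold changes of the set. In complete medium ETV4 (ENSSSCG00000017379; chr12:19531507-19548303 in the RefSeq annotation of Sscrofa11.1) stood at 60.8 CPM in Em, 140 in LPN, 91.4 in EPN1 and 151 in EPN2. In differentiation medium it stood at 2.29, 8.39, 4.14 and 13.7 CPM in the same order. The lowest complete library was 4.43-fold above the highest differentiation library, and the order of the lines was the same in both media, from Em through EPN1 and LPN to EPN2. The level left in differentiation medium was 3.77% in Em, 6.004% in LPN, 4.53% in EPN1 and 9.10% in EPN2. ETV4 fell from 111 ± 42.1 to 7.14 ± 5.08 CPM (mean ± SD, n = 4), with a log2 fold change of -3.95 ± 0.61 (SE) and an adjusted p-value of 0.0167 in edgeR.

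ETV5 (ENSSSCG00000023229; chr13:123873346-123930292) was at 35.7 CPM in Em, 37.6 in LPN, 24.3 in EPN1 and 62.6 in EPN2 in complete medium. In differentiation medium it was at 1.11, 0.835 and 1.02 CPM in Em, LPN and EPN1, and at 5.60 CPM in EPN2. EPN2 was thus the highest line in both media, and in differentiation medium it stood well above the other lines, which lay close together. The lowest complete library still exceeded the differentiation library of EPN2 by 4.34-fold. ETV5 fell from 40.1 ± 16.1 to 2.14 ± 2.31 CPM (n = 4), a log2 fold change of -4.23 ± 0.73 (SE) with an adjusted p-value of 0.0213 in edgeR. This was the 49th lowest log2 fold change of the 14475 genes tested, and that of ETV4 was the 65th.

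ETV calls were lost without single libraries of LPN or EPN1, where calls over all genes also fell. Over all genes, 1009 calls became 168 and 163 without the complete library of LPN or EPN1. Without their differentiation libraries they became 177 and 70. The calls that other members lost in the same fits, given below, stand beside the same counts. ETV4 was no longer past the threshold in edgeR without the differentiation library of LPN (adjusted p-value 0.0533) or of EPN1 (0.0616). ETV5 lost its call without the complete library of LPN (0.0627) or EPN1 (0.0547) and without the differentiation library of LPN (0.0605) or EPN1 (0.0739). The log2 fold changes stayed between -4.48 and -3.66 for ETV4 and between -5.33 and -3.92 for ETV5 over the 8 fits that each left out 1 library.

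The Sprouty proteins SPRY1, SPRY2 and SPRY4 act below receptor tyrosine kinases to restrain RAS and ERK activation. SPRY1 (ENSSSCG00000009083; chr8:100449476-100863780) was at 102 CPM in Em, 101 in LPN, 128 in EPN1 and 73.9 in EPN2 in complete medium, and at 35.4, 35.6, 37.9 and 20.01 CPM in differentiation medium. EPN2 was the lowest line and EPN1 the highest in each medium, and the groups were separated by 1.95-fold. SPRY1 fell with a log2 fold change of -1.65 ± 0.24 (SE) and an adjusted p-value of 0.0156 in edgeR, from 101 ± 22.1 to 32.2 ± 8.23 CPM (n = 4). Its change within a line was the most even of the set, from -1.50 in LPN to -1.89 in EPN2 on the log2 scale. Without the complete or the differentiation library of EPN1, the adjusted p-value was 0.0516 or 0.0541.

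SPRY2 (ENSSSCG00000009482; chr11:52153695-52158766) was at 30.7, 41.5, 33.4 and 23.6 CPM in complete medium in Em, LPN, EPN1 and EPN2. In differentiation medium these lines had 16.2, 15.7, 18.7 and 10.3 CPM. As for SPRY1, EPN2 was the lowest line in both media, and the gap between the media was 1.26-fold. SPRY2 fell from 32.3 ± 7.37 to 15.2 ± 3.55 CPM (n = 4), with a log2 fold change of -1.08 ± 0.24 (SE) and an adjusted p-value of 0.0387 in edgeR. This call was the least stable of the 7. It was lost without any 1 of the 6 libraries of Em, LPN and EPN1, with adjusted p-values of 0.0775, 0.101 and 0.105 without their complete and 0.0682, 0.0923 and 0.0816 without their differentiation libraries, and also with no expression filter (0.0533).

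SPRY4 (ENSSSCG00000036322; chr2:143877334-143891280) had 406, 231, 230 and 366 counts in complete medium in Em, LPN, EPN1 and EPN2, which are 8.80, 5.63, 5.53 and 8.27 CPM. In differentiation medium it had 11, 28, 4 and 81 counts, which are 0.227, 0.585, 0.0905 and 1.89 CPM. The count in EPN1 is next to the limit of 3 counts, whereas EPN2 kept more than any other line. The highest differentiation library was 2.92-fold below the lowest complete library, yet the highest and the lowest differentiation library differed by 20.9-fold. SPRY4 averaged 7.06 ± 1.72 CPM in the complete and 0.698 ± 0.822 CPM in the differentiation libraries (n = 4), a log2 fold change of -3.33 ± 0.86 (SE) that missed the threshold in edgeR (adjusted p-value 0.0566). It passed with the line as a block (log2 fold change -3.95, adjusted p-value 0.0237), in DESeq2 (0.000440), and in edgeR without the differentiation library of EPN2 (log2 fold change -4.53, adjusted p-value 0.0212).

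SPRED1 encodes a Sprouty-related protein that brings the RAS GTPase activating protein neurofibromin to the membrane. It lies at chr1:132903103-133016725 (ENSSSCG00000039393). Its level in complete medium was 159 CPM in Em, 119 in LPN, 102 in EPN1 and 187 in EPN2, and in differentiation medium 44.3, 37.6, 33.0 and 37.8 CPM. The lines spread 1.83-fold in complete and 1.34-fold in differentiation medium, and the groups were 2.30-fold apart. SPRED1 fell from 141 ± 38.4 to 38.2 ± 4.65 CPM (n = 4), with a log2 fold change of -1.89 ± 0.21 (SE). Its adjusted p-value of 0.00728 in edgeR was the lowest of the set, and it was the only member called in each of the 8 fits that left out 1 library.

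The dual specificity phosphatase DUSP6 removes the activating phosphates from ERK in the cytoplasm. DUSP6 (ENSSSCG00000037910; chr5:93303058-93307510) was at 118, 154, 142 and 239 CPM in Em, LPN, EPN1 and EPN2 in complete medium, and at 46.9, 58.9, 62.6 and 72.6 CPM in differentiation medium. Em was the lowest and EPN2 the highest line in each medium, and the groups did not overlap, with a gap of 1.63-fold. DUSP6 fell from 163 ± 52.5 to 60.2 ± 10.6 CPM (n = 4), a log2 fold change of -1.44 ± 0.24 (SE) with an adjusted p-value of 0.0195 in edgeR. The adjusted p-value rose to 0.0604 and 0.0540 without the complete library of LPN or EPN1, and to 0.0651 and 0.0734 without their differentiation libraries.

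DUSP4, a nuclear phosphatase of ERK and related kinases, had the smallest difference of the set. DUSP4 (ENSSSCG00000015850; chr15:55491084-55508460) was at 94.8, 67.9, 81.2 and 107 CPM in complete medium in Em, LPN, EPN1 and EPN2. In differentiation medium it was at 55.8, 53.7, 35.9 and 59.1 CPM. The groups touched most closely here, since LPN in complete medium was only 1.15-fold above EPN2 in differentiation medium. LPN kept 79.0% of its DUSP4 and EPN1 kept 44.1%. With means of 87.8 ± 17.1 and 51.1 ± 10.4 CPM (n = 4), the log2 fold change was -0.78 ± 0.20 (SE) and missed the threshold in edgeR (adjusted p-value 0.0567). DUSP4 passed with the line as a block (0.0268) and in DESeq2 (0.00967).

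PHLDA1, a pleckstrin homology-like domain protein that growth factors induce, lies at chr5:39309701-39319313 (ENSSSCG00000000521). It was at 463 CPM in Em, 458 in LPN, 391 in EPN1 and 491 in EPN2 in complete medium. There the lines lay within 1.26-fold of each other, the narrowest range of the set in that medium. In differentiation medium they spread over 2.83-fold, with 125, 59.4, 79.9 and 168 CPM. PHLDA1 fell from 451 ± 42.4 to 108 ± 48.5 CPM (n = 4), with a log2 fold change of -2.06 ± 0.32 (SE) and an adjusted p-value of 0.0167 in edgeR. The call was lost without the complete library of LPN (0.0522) and without the differentiation library of EPN1 (0.0616).

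FOSL1 encodes the AP-1 subunit FRA1. FOSL1 (ENSSSCG00000012967; chr2:6430158-6436173) was at 7.15, 5.90, 6.28 and 13.8 CPM in complete and at 1.16, 0.626, 1.27 and 3.90 CPM in differentiation medium in Em, LPN, EPN1 and EPN2. EPN2 was far above the other lines in both media, and the gap between the media was 1.51-fold. The means were 8.28 ± 3.72 and 1.74 ± 1.47 CPM (n = 4), and the log2 fold change of -2.25 ± 0.61 (SE) missed the threshold in edgeR (adjusted p-value 0.0632). FOSL1 passed with the line as a block (0.0126), in DESeq2 (0.00236), without the differentiation library of EPN2 (0.0228) and without the extended gene models that hold 9.36% of its counts (0.0473).

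**Figure D2:**
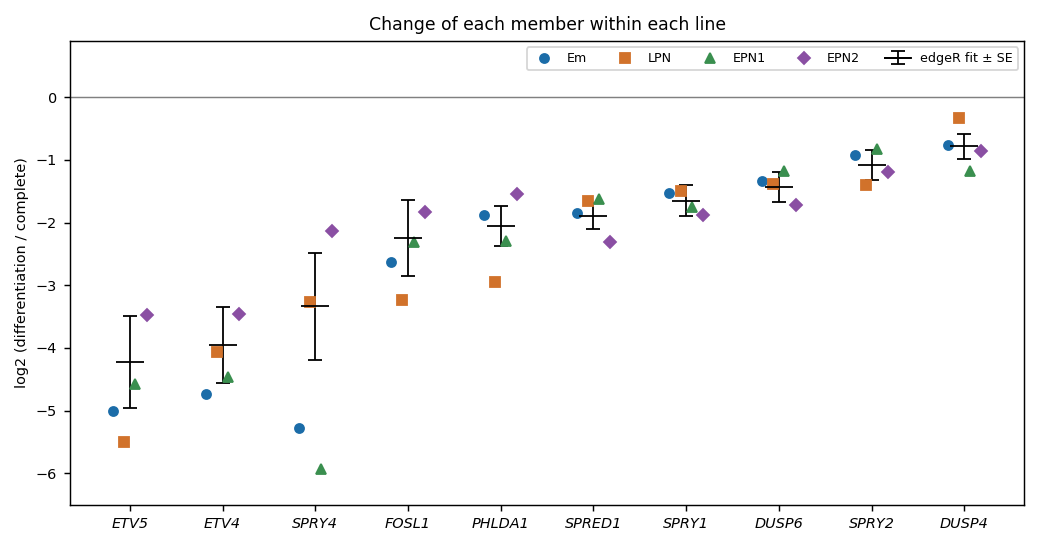
Log2 ratio of differentiation to complete medium for each of the 10 genes, with 1 coloured marker per PPDO line and the edgeR log2 fold change with its SE in black, ordered from the lowest to the highest fit. The markers lie below 0 for every gene and line, from -5.93 for SPRY4 in EPN1 to -0.34 for DUSP4 in LPN.

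Within a line, the order of the members was much alike. In Em, LPN and EPN1 the lowest log2 ratios belonged to ETV4, ETV5 and SPRY4, and in EPN2 to ETV5, ETV4 and SPRED1, with SPRY4 next. DUSP4 had the highest ratio in Em, LPN and EPN2, and SPRY2 in EPN1. Differences between members were tested within lines for 8 pairs by a two-sided exact permutation test that flips the sign of each line's difference. With 4 lines the smallest p-value of this exact test is 0.125, so that no pair could pass 0.05. ETV4 was lower than DUSP6 by a mean of -2.77 ± 0.76 (SD) in log2 ratio, in 4 of 4 lines (exact permutation p = 0.125, adjusted 0.167 over the 8 pairs). ETV5 was below ETV4 in 4 of 4 lines, but by only -0.02 in EPN2 and -0.11 in EPN1, against -1.44 in LPN and -0.27 in Em.

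Among the Sprouty genes, SPRY4 was below SPRY1 by a mean of -2.49 ± 1.83 (SD) and below SPRY2 by -3.06 ± 1.98 in log2 ratio, each in 4 of 4 lines. The difference from SPRY1 ran from -4.18 in EPN1 to -0.24 in EPN2. In EPN1 and Em the SPRY4 ratios rest on 4 and 11 counts in differentiation medium, so the size of these means is uncertain. SPRY1 was below SPRY2 in 4 of 4 lines as well, by -0.58 ± 0.35. These 3 pairs also had an exact permutation p-value of 0.125, the smallest possible. SPRED1 and SPRY1 differed by -0.19 ± 0.24 and DUSP6 and DUSP4 by -0.62 ± 0.46, each with the same sign in 3 of 4 lines (exact permutation p = 0.25). In EPN1 the phosphatases DUSP6 and DUSP4 had the same log2 ratio of -1.18.

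The 4 lines shared the direction but not the level. EPN2 was the highest line for 7 of the 10 members in complete medium (DUSP4, DUSP6, SPRED1, ETV4, ETV5, PHLDA1 and FOSL1) and for 7 in differentiation medium, where SPRY4 took the place of SPRED1. Of all genes tested, 28.1% were highest in EPN2 in complete and 34.8% in differentiation medium. SPRY1 and SPRY2 went the other way and were lowest in EPN2 in both media. The median log2 ratio of the members was -1.86 in Em, -2.30 in LPN, -2.02 in EPN1 and -1.85 in EPN2, beside all-gene medians of -0.01 to 0.01. EPN2 had the highest ratio of the 4 lines for 5 members and the lowest for 3. The ratio of the highest to the lowest line was wider in differentiation than in complete medium for 8 members and narrower for DUSP6 and SPRED1, and it was wider for 53.7% of all genes tested.

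**Figure D3:**
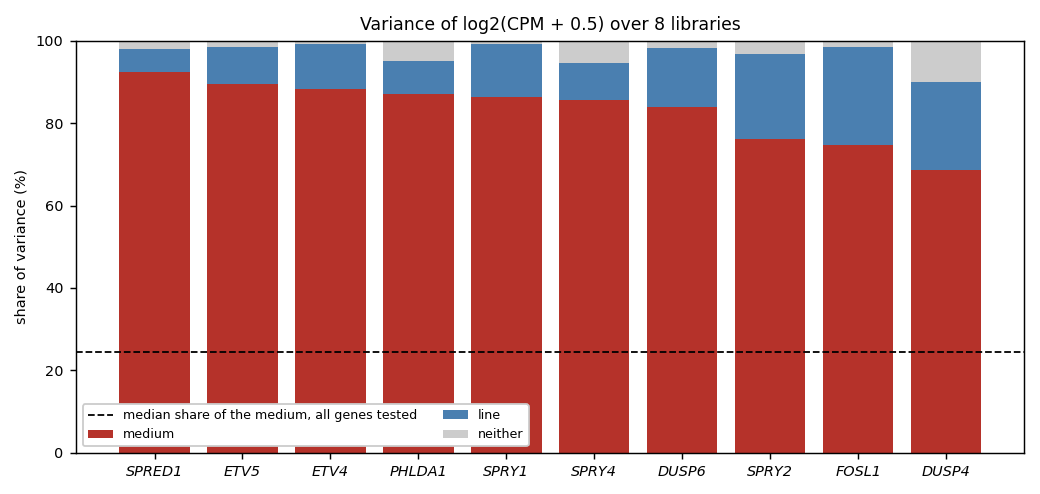
Share of the variance of log2(CPM + 0.5) over the 8 libraries that lay between the media, between the lines and in neither, for each of the 10 genes, with a dashed line at the median share of the medium over all genes tested (24.6%). The medium takes 92.5% for SPRED1 at the left and 68.6% for DUSP4 at the right.

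The variance over the 8 libraries was split between medium, line and remainder on the scale of log2(CPM + 0.5). The medium held a median of 86.1% of the variance of the members, from 68.6% for DUSP4 to 92.5% for SPRED1, and 24.6% for the median gene tested. A share as large as that of DUSP4 was reached by 12.0% of all genes. The line held 23.7% for FOSL1, 21.5% for DUSP4 and 20.7% for SPRY2, the largest line shares of the set, and 49.2% for the median gene. What neither explained was below 1% for SPRY1 (0.783%) and ETV4 (0.875%) and was largest on this scale for DUSP4 (9.97%). The offset of 0.5 exceeds the SPRY4 level in Em and EPN1 in differentiation medium (0.227 and 0.0905 CPM). It narrows the spread between lines there, so the SPRY4 remainder (5.30%) depends on it.

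Other genes of the pathway and genes of proliferation were read from the same fit, as 8 lists with 94 genes tested by edgeR. Of all 14475 genes tested, 4.10% were called lower and 2.87% higher in that fit, and 3954 were under an unadjusted p-value of 0.05. The blocked fit called 2884 genes, with 10.4% of all genes lower, and DESeq2 also 2884, with 9.97% lower. Of 7 other dual specificity MAPK phosphatases tested, 1 was called higher, beside 2.87% of all genes, and none lower. DESeq2 gave the same counts, 1 of the 7 was under an unadjusted p-value of 0.05, and the median log2 fold change was 0.30. The gene called higher was DUSP16, a phosphatase of JNK and p38, which was at 63.4, 53.8, 66.1 and 56.7 CPM in complete and at 125, 109, 123 and 182 CPM in differentiation medium. It rose with a log2 fold change of 1.17 ± 0.18 (SE) and an adjusted p-value of 0.0158 in edgeR. Its call was lost without the complete library of LPN (0.0591) or the differentiation library of EPN1 (0.0548).

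Of 13 other feedback inhibitors tested, 2 were called lower and none higher, with a median log2 fold change of -0.44. They were ERRFI1, an inhibitor of the EGF receptor, and NF1, the neurofibromin that SPRED1 recruits. ERRFI1 fell from 286 ± 64.7 to 122 ± 28.1 CPM, with a log2 fold change of -1.23 ± 0.22 (SE) and an adjusted p-value of 0.0230 in edgeR. NF1 fell from 217 ± 5.92 to 125 ± 24.0 CPM, with a log2 fold change of -0.80 ± 0.15 (SE) and an adjusted p-value of 0.0273. Both calls were lost without the complete library of Em, LPN or EPN1 and without the differentiation library of LPN or EPN1, with adjusted p-values of 0.0514 to 0.0789 for ERRFI1 and 0.0618 to 0.0822 for NF1. With the line as a block, 5 of the 13 were called lower, beside 10.4% of all genes. The family members of SPRY1, SPRY2, SPRY4 and SPRED1 in this list were picked after the values were seen, for their relation to the set, and each was lower in 4 of 4 lines without a call in edgeR. SPRY3 averaged 9.69 ± 7.39 and 2.64 ± 2.54 CPM (log2 fold change -1.88, adjusted p-value 0.200) and SPRED2 72.7 ± 11.5 and 53.5 ± 14.4 CPM (-0.44, 0.224). SPRED3 averaged 0.539 ± 0.0567 and 0.104 ± 0.0971 CPM (-2.35, 0.117), with 0 to 10 counts per differentiation library. In the blocked fit SPRED2 passed (0.0386), and in DESeq2 SPRED3 did (0.0392).

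None of the 10 other ETS factors tested was called in edgeR, and 4 were under an unadjusted p-value of 0.05, beside 3954 of all 14475 genes. DESeq2 called 1 higher and 1 lower, beside 2884 of all genes called, of which 1443 were lower. The smallest p-values belonged to ELK4, a partner of serum response factor, with a log2 fold change of -0.47 ± 0.15 (SE), and ERF, an ETS repressor that ERK phosphorylates, with 0.47 ± 0.15. Their adjusted p-values in edgeR were 0.0970 and 0.0987, and ERF passed with the line as a block (0.0462). ETV1, the remaining gene of the PEA3 group, was chosen for its relation to ETV4 and ETV5 after the values were seen. It was at 11.8, 5.51, 6.35 and 4.11 CPM in complete and 12.0, 3.26, 3.71 and 2.85 CPM in differentiation medium in Em, LPN, EPN1 and EPN2, with a log2 fold change of -0.35 ± 0.55 (SE) and an adjusted p-value of 0.719 in edgeR. Without the complete library of Em its log2 fold change turned to 0.06 (adjusted p-value 0.960).

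Of 5 other AP-1 genes tested, 1 was called lower in edgeR. This was FOS, an immediate early gene that ERK induces, which fell from 80.9 ± 11.7 to 23.7 ± 8.14 CPM with a log2 fold change of -1.77 ± 0.24 (SE) and an adjusted p-value of 0.0128. FOSL2, singled out after the values were seen because it is the closest relative of FOSL1, averaged 183 ± 32.1 CPM in complete medium and 422 ± 188 CPM after differentiation, in the opposite direction to FOSL1 in 4 of 4 lines. Its log2 fold change of 1.20 ± 0.30 (SE) had an adjusted p-value of 0.0543 in edgeR and 0.0173 with the line as a block.

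Of 16 other genes that ERK activity is known to raise, 2 were called lower and none higher in edgeR, with a median log2 fold change of -0.78. With the line as a block 7 were called lower, beside 10.4% of all genes, and 1 higher. UPP1, the uridine phosphorylase, was at 110, 135, 137 and 163 CPM in complete and at 8.29, 9.16, 6.29 and 15.6 CPM in differentiation medium in Em, LPN, EPN1 and EPN2. It fell with a log2 fold change of -3.79 ± 0.30 (SE) and an adjusted p-value of 0.00263 in edgeR, next to ETV4 in size, and remained called in each of the 8 fits that left out 1 library, as did FOS. CCND1, which encodes cyclin D1, fell from 412 ± 198 to 144 ± 26.5 CPM, with a log2 fold change of -1.52 ± 0.34 (SE) and an adjusted p-value of 0.0399 in edgeR. The CCND1 call was lost in 6 of the 8 fits that left out 1 library, with adjusted p-values of 0.0621 to 0.113 without any 1 of the differentiation libraries or of the complete libraries of LPN and EPN1, and it was lost with no expression filter (0.0509). PHLDA2, picked after the values were seen as the relative of PHLDA1, was at 275, 265, 235 and 306 CPM in complete and at 86.6, 120, 77.7 and 226 CPM in differentiation medium, lower in 4 of 4 lines with no overlap. Its log2 fold change of -1.09 ± 0.33 (SE) had an adjusted p-value of 0.0866 in edgeR, and it passed in the blocked fit (0.0253), in DESeq2 (0.0209) and without the differentiation library of EPN2 (0.0154).

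**Figure D4:**
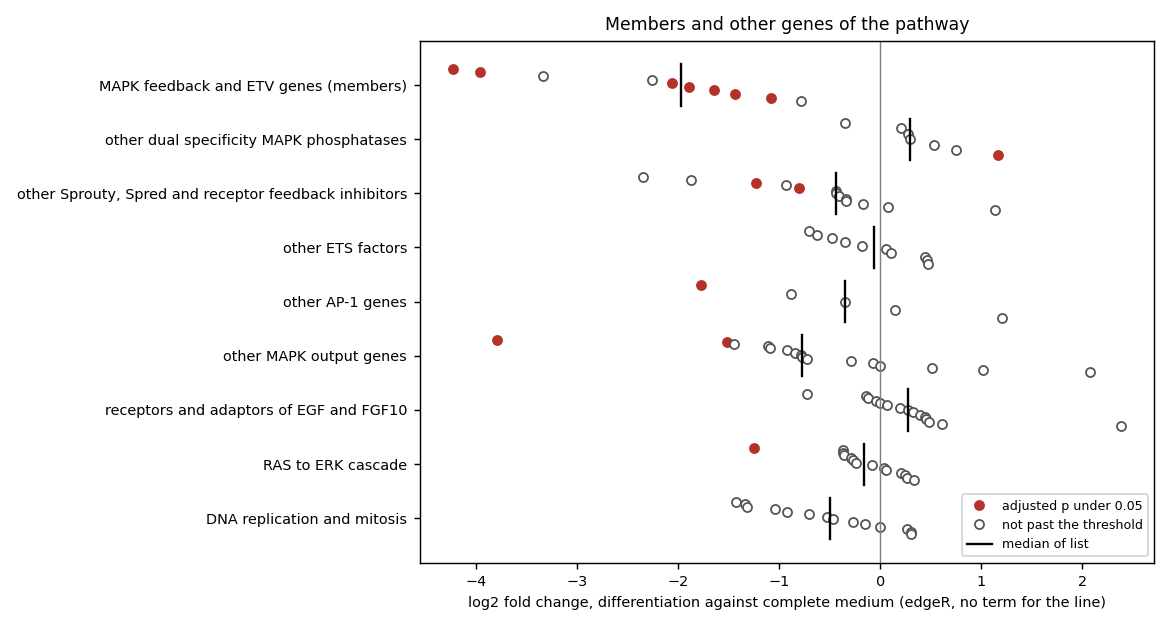
Log2 fold change between the media in edgeR for the 10 MAPK feedback and ETV genes and for 8 other lists of the pathway and of proliferation, with 1 point per gene, filled where the adjusted p-value was under 0.05, and a bar at each list's median. The 10 genes have a median of -1.97, and the medians of the other lists lie between -0.78 and 0.30.

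None of 15 receptors and adaptors of EGF and FGF10 signalling was called in edgeR, with 4 under an unadjusted p-value of 0.05. Of all 14475 genes, 3954 were under it. DESeq2 called 3 of the 15 higher, beside 2884 of all genes called, of which 1443 were lower. EGFR was at 288, 420, 332 and 462 CPM in complete and at 297, 596, 381 and 824 CPM in differentiation medium in Em, LPN, EPN1 and EPN2, with a log2 fold change of 0.48 ± 0.33 (SE) and an adjusted p-value of 0.371. FGFR2, the receptor of FGF10, averaged 62.3 ± 18.2 CPM in the complete and 84.5 ± 25.0 CPM in the differentiation libraries, with a log2 fold change of 0.44 ± 0.27 (SE) and an adjusted p-value of 0.326 in edgeR. Both were higher in differentiation medium in 4 of 4 lines, while the ranges of the media overlapped. The smallest p-values of the list belonged to the adaptor GAB1 (log2 fold change 0.61, adjusted p-value 0.0866 in edgeR) and FGFR3 (0.40, 0.0914).

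Of 14 genes of the RAS to ERK cascade, MAP2K1 alone was called in edgeR. MAP2K1 encodes MEK1, the kinase directly above ERK, and was at 119, 82.6, 117 and 66.2 CPM in complete and at 44.1, 38.9, 36.4 and 42.7 CPM in differentiation medium in Em, LPN, EPN1 and EPN2. It fell with a log2 fold change of -1.25 ± 0.20 (SE) and an adjusted p-value of 0.0189 in edgeR. The call was lost without the complete library of EPN1 (0.0614) and without the differentiation library of LPN (0.0611) or EPN1 (0.0734). The cascade's median log2 fold change was -0.16.

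Genes of DNA replication and mitosis are given beside the members because EGF and FGF10 also drive proliferation. Of 14 tested, none was called in edgeR and 4 were under an unadjusted p-value of 0.05, beside 3954 of all 14475 genes. DESeq2 called 1 lower, beside 9.97% of all genes, and the blocked edgeR fit called 6 lower, beside 10.4%. Their median log2 fold change was -0.50. The smallest p-values belonged to the mitotic kinase genes BUB1, at 29.4 ± 8.62 and 10.9 ± 5.75 CPM (adjusted p-value 0.0866 in edgeR and 0.0171 in the blocked fit), and CDK1, at 28.2 ± 12.0 and 11.14 ± 7.34 CPM (0.149 and 0.0170). The part of these differences in those of the members was not tested.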

How the data were processed

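Poly(A) RNA of 4 PPDO lines, each in both media, was sequenced as 8 libraries. The authors ran salmon within nf-core on a custom annotation of the pig genome and deposited the estimated counts of each gene. Their processing notes list the builds GRCh38 and Sscrofa11.1 and the tool Cell Ranger. In the study's methods, length scaled gene counts went into DESeq2. The deposited counts are labelled raw, 78.6% of those above 0 were whole, and whether they are the scaled ones could not be read from them, so levels are compared only within a gene. Gene coordinates come from RefSeq for Sscrofa11.1 and were matched by symbol for 10 of 10 members. The suffixed entries of a gene were summed and rounded, and 8 reporter transgenes (0.00142% of counts) were left out.

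Counts were tested in R 4.3.3 with edgeR 4.0.16 (TMM, default expression filter, quasi-likelihood test, medium as the only term, threshold 0.05 after Benjamini-Hochberg adjustment over 14475 genes). SE is the absolute log2 fold change divided by the square root of F. Alternatives were the line as a block, DESeq2 1.42.0 with and without it, its size factors, no filter, no extended entries, and leaving out each library or line. Columns were assigned to media and lines by name, and replicate numbers were not matched. Because each line was in both media, lines pair the libraries: deviations from the medium means correlated at 0.401 to 0.658 within and -0.491 to 0.266 between lines. Without the block, p-values rest on the spread of libraries within a medium and leave this pairing unused. With the block, they rest on how the change between media varied from line to line. Both cover these lines only. Members and lists were chosen with earlier results of these data known. The text names all members, EGFR and FGFR2, and from each other list at most 4 called genes with the smallest adjusted p-values, or the 2 smallest where none was called. ETV1, SPRY3, SPRED2, SPRED3, FOSL2, PHLDA2 and the markers PDGFRB and CDH1 fall outside this rule and were chosen after their values were seen. The procedure was also run on simulated counts that held no differences between lines. That simulation cannot show how the fit without a term for the line performs on lines that differ. Plots and tables used Python 3.11.15, pandas 2.3.3 and matplotlib 3.10.9.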

Additional observations from a re-analysis of the deposited data

Results flagged for a closer look

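Levels of each member in the 4 libraries of a medium, and the log2 ratios of the 4 lines, were screened with Dixon's ratio, the gap of an extreme sample to its neighbour divided by the range, against its 95% critical value for 4 samples. Of 30 sets, 3 exceeded it, and chance alone exceeds it in about 1 in 20 where values are normal and sets independent. The flagged levels are CPM without a log transform, and the log2 ratios derive from the same levels, so that rate is only a guide. All 3 involve EPN2. ETV5 in differentiation medium had a ratio of 0.942, with EPN2 at 5.60 CPM above the other lines. SPRY1 in differentiation medium had a ratio of 0.861, with EPN2 at 20.01 CPM below the other lines. FOSL1 in complete medium had a ratio of 0.842, with EPN2 at 13.8 CPM above the other lines.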

How the results depend on the processing

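No member changed direction under any of the 18 alternatives. Since no member's levels overlapped between the media, leaving out libraries or lines could hardly reverse a direction. Of the other genes of the pathway named in the report, ETV1 alone changed direction. Its log2 fold changes were -1.0834 to 0.0597 over the fits without 1 library, the latter without the complete library of Em. SPRED3 gave no value without the extended entries, where it was not tested. The members' median log2 fold change stayed between -2.12 and -1.83. The 180 values for single members were set against the fit of all libraries without the block. Of these, 130 kept their side of the threshold, 34 lost a call and 16 gained one. Over all genes, 1009 were past the threshold, 506 with no expression filter, 2884 with the line as a replicate block, 2884 in DESeq2 and 5393 in DESeq2 with the replicate block. Leaving out libraries gave 70 to 1199 genes and leaving out lines, with the block, 8 to 2989. The 7 members called became 1 to 9 without a library. With the replicate block, the 10 members called became 0 to 10 without a line. The 0 came without EPN1, and 1 without LPN. Without EPN1 all 10 had an unadjusted p-value under 0.05 in edgeR, but the share of all genes under it in that fit was not counted. Without the complete library of LPN or EPN1, or the differentiation library of LPN, 3 members were called, and without the differentiation library of EPN1 1 (SPRED1). Over all genes, leaving out a complete library gave 446 (Em), 168 (LPN), 163 (EPN1) and 1199 (EPN2), and a differentiation library 498 (Em), 177 (LPN), 70 (EPN1) and 900 (EPN2). Among the 95 other listed genes in the table, 7 were called, 24 with the replicate block, 19 in DESeq2 and 44 in DESeq2 with the replicate block. Without a library 2 to 10 were called (3 without the complete library of LPN or EPN1 or the differentiation library of LPN, 2 without the differentiation library of EPN1). With the replicate block, the 24 became 1 to 25 without a line (1 without EPN1 or LPN, 17 without Em). The cause of these differences between fits was not tested. The replicate block ended no member call and added those of DUSP4, SPRY4 and FOSL1. Depth limits SPRY4, at 4 counts in EPN1 in differentiation medium, more than any other member.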
